A study of Mus musculus with 3 samples.

Results

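The genes described here carry dietary fatty acids through the absorptive cell and build them into triglyceride: the surface receptor Cd36, the fatty acid transport protein Slc27a4, the binding proteins Fabp1 and Fabp2, the acyl-CoA synthetase Acsl5, and the acyltransferases Mogat2, Dgat1 and Dgat2. They were taken by symbol, 8 of 31053 genes listed, with no threshold on a measured value. The cells came from the small intestine of male C57BL/6N wildtype mice aged 12 weeks, which carried no transgene. Duodenum, Jejunum and Ileum gave 1 library each, and each library pooled cells of 3 mice. Live epithelial and intraepithelial immune cells were sorted by exclusion of propidium iodide and sequenced with the 10x Genomics 3′ chemistry, which counts unique molecular identifiers (UMIs).

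Absorbed fat reaches the enterocyte as fatty acid and monoacylglycerol. Fatty acids are bound in the cytosol by fatty acid binding proteins, joined to coenzyme A, and esterified at the endoplasmic reticulum, where monoacylglycerol acyltransferase and then diacylglycerol acyltransferases build triglyceride for chylomicrons or for storage droplets. Proximal and mid small intestine take up most dietary fat, whereas the ileum recovers bile acids.

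In the annotation of build GRCm38 the genes lie on chromosomes 2 (Slc27a4, chr2:29802634-29817522), 3 (Fabp2, chr3:122895072-122899506), 5 (Cd36, chr5:17781690-17888801), 6 (Fabp1, chr6:71199827-71205023), 7 (Dgat2, chr7:99153658-99182719, and Mogat2, chr7:99219084-99238619), 15 (Dgat1, chr15:76502015-76511953) and 19 (Acsl5, chr19:55251938-55297720). Dgat2 and Mogat2 are neighbours on the same strand, 36364 bases apart with 0 annotated genes between them. Fabp2, Acsl5 and Mogat2 each overlap 1 gene on the opposite strand (4933405D12Rik, Zdhhc6 and Gm45012), so reads could only be told apart by strand, which this chemistry keeps.

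The 250 bases before the RefSeq start sites of Fabp1 and Fabp2 (GRCm38.p6) are shown because these related genes differed in their order along the intestine. Capitals mark 4 short motifs on either strand: TATAAA (the TATA box), AGATAA (bound by GATA factors), TTTATG (bound by CDX factors) and GTTAAT (part of an HNF1 site), none overlapping another here.
Fabp1 (chr6:71199629-71199878, plus strand): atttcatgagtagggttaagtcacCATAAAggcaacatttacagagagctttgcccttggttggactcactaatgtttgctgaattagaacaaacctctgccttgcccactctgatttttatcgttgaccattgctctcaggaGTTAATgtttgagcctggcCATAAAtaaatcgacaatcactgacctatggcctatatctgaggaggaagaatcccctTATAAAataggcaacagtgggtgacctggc
Fabp2 (chr3:122894822-122895071, plus strand): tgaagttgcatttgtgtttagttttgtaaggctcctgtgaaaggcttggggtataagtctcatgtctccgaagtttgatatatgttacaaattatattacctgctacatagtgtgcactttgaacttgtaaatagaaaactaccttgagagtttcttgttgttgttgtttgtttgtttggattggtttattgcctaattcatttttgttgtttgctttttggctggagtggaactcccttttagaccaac
The Fabp1 window held TATAAA 1 time, TTTATG 2 times and GTTAAT 1 time. The Fabp2 window held 0 of the 4 motifs. Over 32851 RefSeq promoters of the same length, 12.4% held TATAAA, 10.8% TTTATG, 9.99% AGATAA and 6.43% GTTAAT on either strand. Promoters of 5 of the 8 genes were in the table used (Cd36, Slc27a4 and Acsl5 being the others), and those of Dgat1, Dgat2 and Mogat2 were not used here.

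The libraries held 9501, 8139 and 9595 barcodes from duodenum, jejunum and ileum, of which 4255, 4360 and 8071 passed the filters. Kept cells had 12424, 11737 and 5536 UMIs at the median, and 27.1%, 27.2% and 11.1% of their UMIs came from mitochondrial genes, so that segment was tied to depth and to mitochondrial share. Kept barcodes shared between libraries numbered 4 (duodenum and jejunum), 5 (duodenum and ileum) and 12 (jejunum and ileum). Clusters named from marker lists without any gene described here gave 10508 enterocytes and 1179 early enterocytes, a total of 11687 cells (3602, 3591 and 4494 by segment). These cells were ordered by the difference between 6 tip and 8 bottom landmark genes of the villus and divided within each library into 5 zones of equal cell number. Most of the bottom landmark genes were also markers of early enterocytes. Comparisons of zones and of early enterocytes with enterocytes are therefore not independent. A further cluster of 972 cells, 660 of them ileal, led by Gm26917, Fgf15 and Fabp6, lay close to both enterocyte lists and was left out. Zones are ranges of a score, not places seen in tissue, and 3256 of the 11687 cells lay within 0.1 SD of a cut. Early enterocytes were 41.0% to 56.2% of zone 1, which was also the deepest zone in each segment. Levels are UMIs per 10000 UMIs of summed cells. Intervals are exact 95% Poisson intervals and cover counting error only, since a segment has 1 library and differences between segments therefore have no test.

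Cd36, a scavenger receptor that binds long chain fatty acids at the cell surface, was a gene of the jejunum in these cells. Its level was 0.415 in duodenum (0.397 to 0.433), 1.58 in jejunum (1.54 to 1.61) and 0.0851 in ileum (0.0765 to 0.0943). The jejunal level was 3.80-fold the duodenal (3.62 to 3.99) and 18.6-fold the ileal (16.7 to 20.7). After thinning each cell to 800 UMIs, Cd36 was found in 2.89% of duodenal, 11.3% of jejunal and 0.712% of ileal cells, against 2.86%, 0.935% and 0.0923% of T cells, which should lack enterocyte transcripts. The share in duodenal T cells rested on 1 UMI in 35 cells, and the summed levels lay further apart: 0.476 in duodenal enterocytes (0.455 to 0.498), 0.0530 in T cells (0.00134 to 0.295) and 0.0490 in goblet cells (0.0261 to 0.0839). T cells had median depths of 4089, 4624 and 4244 UMIs, against 12683, 12525 and 6828 in the lineage.

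Within the villus, Cd36 went from 1.04 in zone 1 of the jejunum to 2.20 in zone 3 and back to 1.01 in zone 5. Duodenal levels were 0.228, 0.517 and 0.462 in the same zones, and ileal levels 0.0435, 0.102 and 0.126. Cd36 rose from zone 1 to zone 3 in each segment, by 1.31 ± 0.24 on the log2 scale (SE, edgeR adjusted p = 0.000649, higher in 3 of 3 libraries), a call lost when zones were drawn over enterocytes alone (0.64, adjusted p = 0.0759). Zone 5 exceeded zone 1 by 1.40 ± 0.24 (adjusted p = 0.000194, 0.81 without scaling factors), although the levels themselves were higher in zone 5 in 2 of 3 libraries, the jejunal log2 ratio being -0.04. Outside the absorptive lineage it was counted in macrophages/monocytes (0.907, 65 UMIs in 65 cells), in dendritic cells (0.488) and in ileal enteroendocrine cells (0.409, 32 UMIs in 94 cells), where the level was 4.10-fold that of ileal enterocytes. The summed level of the 8 macrophage markers in ileal enteroendocrine cells was 0.0894, against 0.124 in ileal enterocytes.

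**Figure D1:**
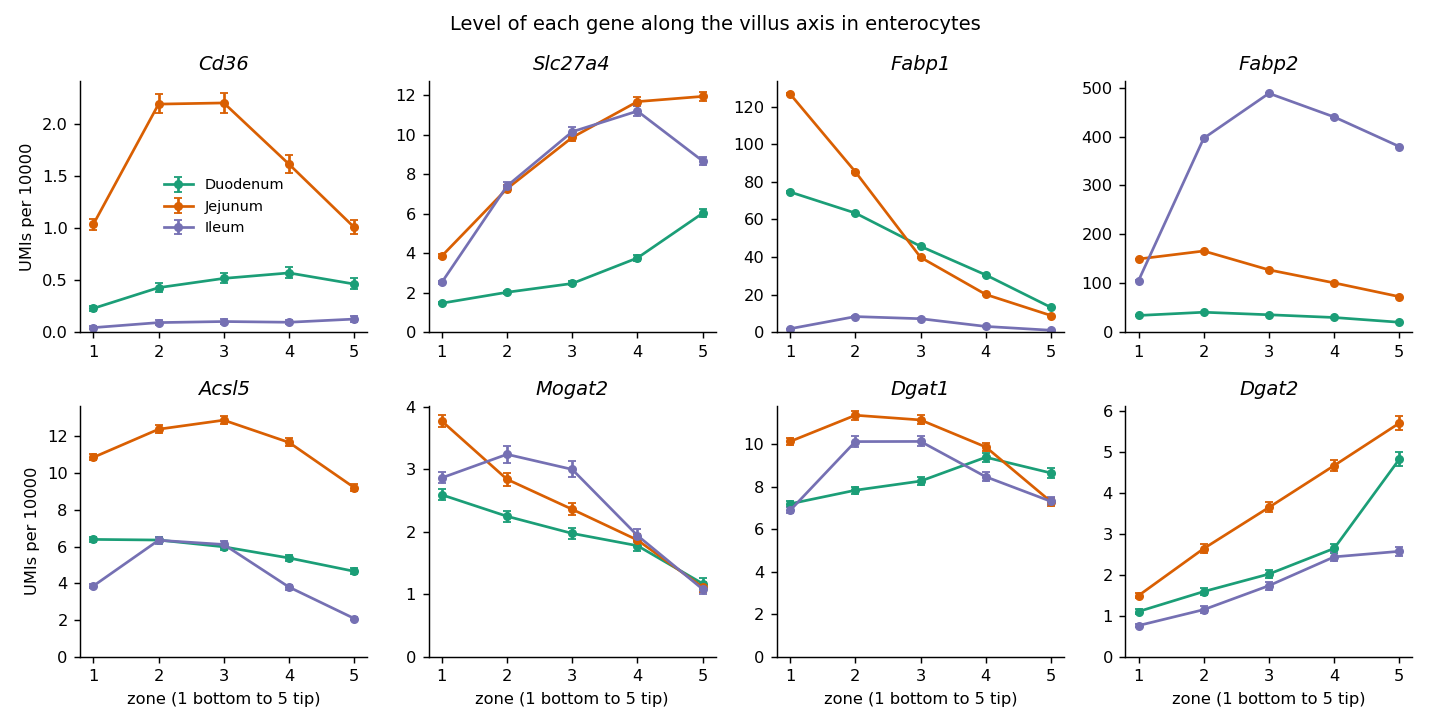
Level of each of the 8 genes (y axis, UMIs per 10000 UMIs, from 0) in 5 zones of enterocytes and early enterocytes (x axis, 1 bottom to 5 tip), 1 line per segment; bars are 95% Poisson intervals. Fabp1 and Mogat2 decline toward the tip, with a peak in zone 2 in the ileum, Slc27a4 and Dgat2 climb, and Cd36 and Acsl5 peak in the middle zones of the jejunum.

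Slc27a4, the fatty acid transport protein of the enterocyte (FATP4), which also has acyl-CoA synthetase activity, was about as high in the ileum as in the jejunum. Levels were 2.77 in duodenum (2.73 to 2.82), 8.33 in jejunum (8.25 to 8.41) and 7.25 in ileum (7.17 to 7.33). The jejunum exceeded the duodenum 3.0-fold (2.95 to 3.06) and the ileum exceeded it 2.61-fold (2.56 to 2.67), or 4.12-fold in the middle zone alone. The jejunum exceeded the ileum 1.15-fold, or 1.33-fold in levels without mitochondrial genes. The ileum was the higher of the pair in the middle zone alone (1.03-fold) and among cells of up to 20% mitochondrial UMIs (1.19-fold).

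Along the villus the climb of Slc27a4 was steep: from 1.47 to 6.03 in the duodenum, from 3.85 to 12.0 in the jejunum, and from 2.52 to 11.2 in zone 4 of the ileum with 8.68 in zone 5. The zone 5 sums exceeded the zone 1 sums in 3 of 3 libraries, and the gene rose by 2.42 ± 0.25 on the log2 scale (SE, edgeR adjusted p = 2.81e-06). From early enterocytes to enterocytes it rose by 2.39 ± 0.33 (adjusted p = 1.25e-06), the mean level going from 1.86 to 7.14. The increase from zone 3 to zone 5 (0.88 ± 0.24, adjusted p = 0.0123, levels higher in 2 of 3 libraries) was lost without the duodenum (0.51, adjusted p = 0.0780), without the jejunum (0.97, adjusted p = 0.110) and without scaling factors (0.46, adjusted p = 0.135).

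Fabp1 and Fabp2, the liver and intestinal fatty acid binding proteins, differed in their order along the intestine. The Fabp1 level was 51.0 in duodenum (50.8 to 51.2), 64.7 in jejunum (64.5 to 64.9) and 3.79 in ileum (3.73 to 3.85). Fabp2 had levels of 33.3 (33.1 to 33.4), 127.7 (127.4 to 128.1) and 325.0 (324.5 to 325.5) in the same order. Fabp1 was thus 60.5% of the UMIs of the pair in duodenum, 33.6% in jejunum and 1.15% in ileum.

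The jejunal Fabp1 level was 17.1-fold the ileal (16.8 to 17.3), and this size depended on which cells were counted: 31.9-fold among cells of up to 20% mitochondrial UMIs, 11.1-fold in enterocytes alone and 5.57-fold in zone 3 alone. Among cells of up to 20% mitochondrial UMIs the jejunal level was 125.8, near the 126.7 of jejunal zone 1, and the ileal level was 3.95. Fabp2 was 9.77-fold higher in the ileum than in the duodenum (9.72 to 9.82) and 2.54-fold higher than in the jejunum (2.54 to 2.55), the latter falling to 1.88-fold among cells of up to 20% mitochondrial UMIs and reaching 3.83-fold in zone 3. The promoters printed above belong to this contrast, but the counts do not bear on any site within them.

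In duodenum and jejunum Fabp1 was a gene of the villus bottom. From zone 1 to zone 5 it went 74.6, 63.4, 45.7, 30.4 and 13.2 in the duodenum and 126.7, 85.3, 39.8, 20.1 and 8.84 in the jejunum. In the ileum it peaked above the bottom, at 1.83, 8.29, 7.15, 3.04 and 0.999. The tip sums were lower than the bottom sums in 3 of 3 libraries, and Fabp1 fell by 2.16 on the log2 scale (SE 0.51, edgeR adjusted p = 0.00206), or by 1.46 without the jejunum (adjusted p = 0.0671). The step from zone 3 to zone 5 had the same direction in each library and dropped by 1.88 on the log2 scale (SE 0.50, adjusted p = 0.0103), which was also lost without the jejunum (adjusted p = 0.0604).

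Fabp2 ran along the villus in different directions by segment. Jejunal levels were 149.6 in zone 1, 166.0 in zone 2 and 72.6 in zone 5, and duodenal levels 34.1, 40.7 and 20.2. In the ileum the level climbed from 105.3 in zone 1 to 488 in zone 3 and stood at 379 in zone 5. Zone 5 against zone 1 did not pass the test over the 3 libraries (0.41 ± 0.45, adjusted p = 0.418) and was negative on the log2 scale without the ileum (-0.33, adjusted p = 0.0452). Among cells of up to 20% mitochondrial UMIs the test was passed with a positive sign (1.02, adjusted p = 0.0124), as it was for zone 3 against zone 1 (1.52, adjusted p = 0.00198, against 0.59 and 0.292 over all kept cells).

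A different pattern was seen for Fabp1 in tuft cells, the chemosensory cells of the epithelium. Their Fabp1 level was 73.5 in duodenum (47 cells), 67.5 in jejunum (67 cells) and 55.7 in ileum (188 cells), so that the drop in ileal enterocytes, from 45.7 and 52.2 to 4.71, had no counterpart of that size in tuft cells. The ileal tuft level was 11.8-fold the enterocyte level, against 1.61-fold and 1.29-fold in the more proximal segments. Fabp1 was found in 96.7% of the 302 tuft cells, and in 87.2%, 89.6% and 83.0% by segment after thinning to 800 UMIs, whereas 25.7%, 19.6% and 2.86% of T cells held it.

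Over the 3 libraries together the difference between tuft cells and enterocytes in Fabp1 did not pass the test (enterocytes minus tuft cells -1.32 ± 0.74 on the log2 scale, edgeR adjusted p = 0.139, lower in enterocytes in 3 of 3 libraries). Its adjusted p ran from 0.0141 to 0.990 over 17 alternatives, below 0.05 under 6 of them, and without the ileum the difference was 0.04. Enterocyte markers in tuft cells, 12 genes summed, stood at 15.1%, 14.4% and 9.60% of their enterocyte level by segment, with 1 marker at 0 in the ileum and 0 elsewhere. Per UMI of these markers, ileal tuft cells held 4.39 Fabp1 UMIs and ileal enterocytes 0.0356, while for Fabp2 the same ratio was 2.83 in tuft cells and 3.09 in enterocytes. In ileal T cells the ratios were 0.0385 and 2.71. Fabp2 in ileal tuft cells (35.9) was also no higher than in ileal T cells (47.9).

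**Figure D2:**
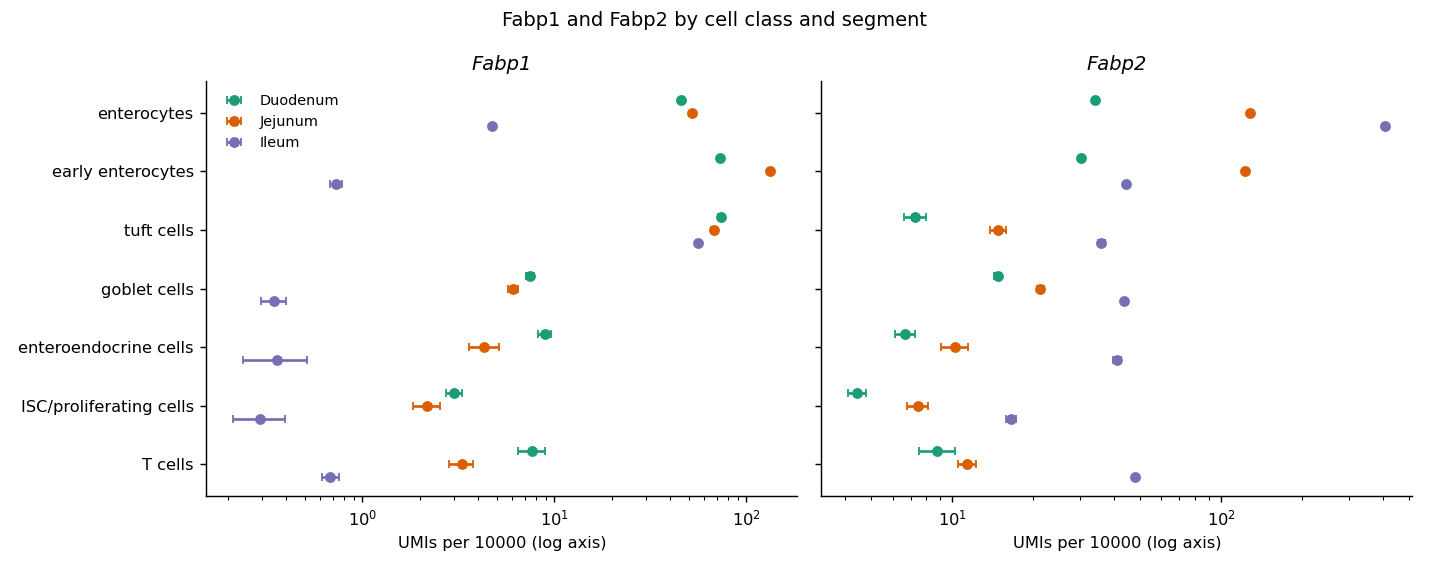
Fabp1 (left) and Fabp2 (right) levels (x axis, UMIs per 10000 UMIs, log scale) in 7 cell classes (y axis), 1 point per segment with its 95% Poisson interval. Tuft cells keep Fabp1 between 55.7 and 73.5 in the 3 segments, while ileal enterocytes lie at 4.71; Fabp2 of T cells in the ileum, a class that should lack it, lies at 47.9 against 409 in ileal enterocytes.

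Acsl5, which joins long chain fatty acids to coenzyme A, had its highest level in the jejunum. It measured 5.90 in duodenum (5.84 to 5.97), 11.4 in jejunum (11.3 to 11.5) and 4.29 in ileum (4.22 to 4.35). The jejunum exceeded the ileum 2.66-fold (2.62 to 2.71) and the duodenum 1.93-fold (1.91 to 1.96), the latter passing 2-fold in the middle zone alone (2.15) and among cells of up to 20% mitochondrial UMIs (2.20). Jejunal levels were 10.9, 12.9 and 9.21 in zones 1, 3 and 5, duodenal levels 6.39, 5.99 and 4.65, and ileal levels 3.86, 6.11 and 2.08. Zone 5 against zone 1 gave 0.09 ± 0.22 on the log2 scale (adjusted p = 0.717), a value that turned to -0.50 (adjusted p = 0.0496) without scaling factors, and the levels were lower in zone 5 in 3 of 3 libraries.

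Mogat2, the monoacylglycerol acyltransferase that starts triglyceride synthesis from monoacylglycerol, had nearly the same level in the 3 segments. Levels were 2.07 (2.03 to 2.11), 2.56 (2.52 to 2.61) and 2.45 (2.40 to 2.50) in duodenum, jejunum and ileum, so that no pair differed by more than 1.24-fold, or 1.52-fold in the middle zone alone. The villus axis, in contrast, separated its cells: 2.59 to 1.17 from zone 1 to zone 5 in the duodenum, 3.77 to 1.11 in the jejunum, and 2.86, 3.24 in zone 2 and 1.08 in the ileum. Mogat2 fell from zone 1 to zone 5 by 0.84 on the log2 scale (SE 0.14, edgeR adjusted p = 0.000141, lower in 3 of 3 libraries), and the drop was larger, 1.44, when no scaling factors were used.

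Dgat1, one of 2 unrelated enzymes that add the last fatty acid, differed little between segments. Its level was 8.09 in duodenum (8.02 to 8.17), 10.1 in jejunum (9.97 to 10.1) and 8.29 in ileum (8.20 to 8.38). Along the villus it stayed between 6.88 and 11.4 in the 15 sums of zone and segment. It rose from zone 1 to zone 5 by 0.56 ± 0.15 (edgeR adjusted p = 0.00384) with sums scaled for composition. Without scaling factors the value was -0.03 (adjusted p = 0.858), and the levels themselves were higher in zone 5 in 2 of 3 libraries. With zones over enterocytes alone the call was lost too (0.255, adjusted p = 0.0799).

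Dgat2, the other diacylglycerol acyltransferase, climbed toward the tip in each segment. Levels from zone 1 to zone 5 were 1.10, 1.59, 2.02, 2.64 and 4.82 in the duodenum. The jejunal series was 1.49, 2.64, 3.65, 4.67 and 5.70, and the ileal series 0.762, 1.15, 1.74, 2.44 and 2.57. Dgat2 rose by 2.54 ± 0.16 on the log2 scale from zone 1 to zone 5 (edgeR adjusted p = 6.03e-08, higher in 3 of 3 libraries) and by 1.26 ± 0.15 from zone 3 to zone 5 (adjusted p = 0.000190). Segment levels were 2.14, 3.36 and 1.62 in duodenum, jejunum and ileum. The jejunum exceeded the ileum 2.07-fold (2.02 to 2.13), and 1.98-fold among cells of up to 20% mitochondrial UMIs.

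As a share of Dgat1 and Dgat2 UMIs together, Dgat2 went from 13.3% to 35.8% in duodenum, from 12.9% to 43.9% in jejunum and from 9.97% to 26.1% in ileum. Such a share does not depend on the total of a sum. The Fabp1 share of the Fabp1 and Fabp2 pair moved the other way, from 68.6% to 39.4% in duodenum, from 45.9% to 10.9% in jejunum and from 1.71% to 0.263% in ileum. Because the counting of 3′ ends differs between genes, shares are compared here between zones and segments, and are no measure of relative protein or enzyme.

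**Figure D3:**
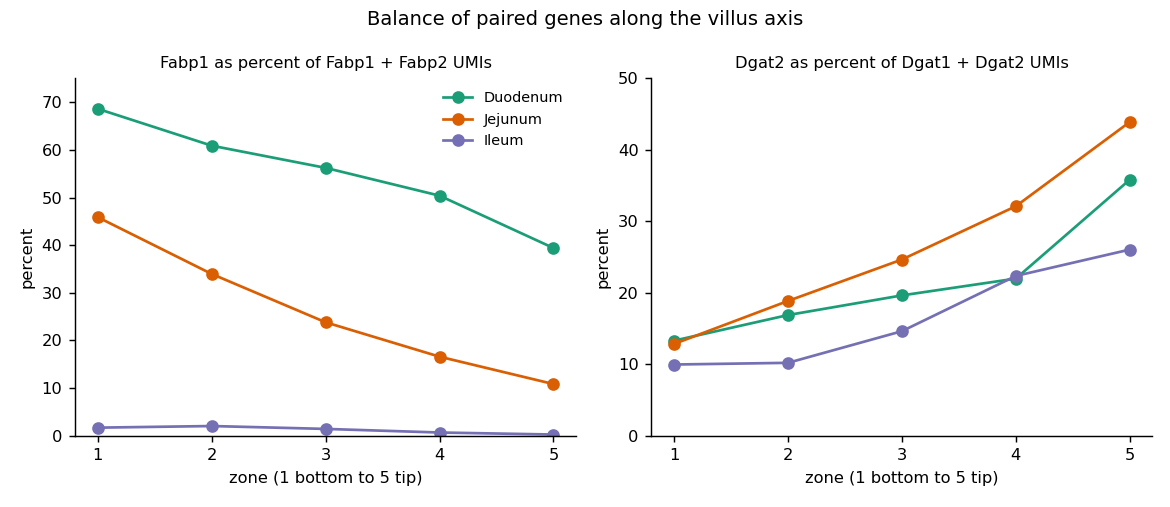
Fabp1 as percent of Fabp1 plus Fabp2 UMIs (left) and Dgat2 as percent of Dgat1 plus Dgat2 UMIs (right), y axes from 0, against zone (x axis, 1 bottom to 5 tip), 1 line per segment. Dgat2 reaches 35.8%, 43.9% and 26.1% in zone 5 of duodenum, jejunum and ileum, and the ileal Fabp1 line stays at or under 2.05%.

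Against the cell classes compared here, most of the genes were higher in enterocytes. Macrophages/monocytes, dendritic cells and B cells were not among these classes. Compared with goblet cells, 8 of 8 were higher in enterocytes (28.0% of 11836 genes tested were), and compared with stem and proliferating cells 8 of 8 (37.7%). The count was 7 of 8 against tuft cells (31.4%), Fabp1 being the exception, 8 of 8 against enteroendocrine cells (32.6%) and 8 of 8 against T cells (37.2%). Genes lower in enterocytes were 19.0%, 23.7% and 27.4% of those tested against tuft, enteroendocrine and T cells, and 0 of the 8 were among them. The median log2 difference of the 8 genes was 3.36 against goblet cells and 5.04 against stem and proliferating cells, where the medians of the tested genes were 0.27 and 0.31. For example, Dgat2 averaged 2.68 in enterocytes and 0.301 in goblet cells (3.44 ± 0.29, edgeR adjusted p = 1.36e-10), and Mogat2 2.20 and 0.223 (3.53 ± 0.30, adjusted p = 2.51e-10). Fabp1 against goblet cells (3.35 ± 0.77, adjusted p = 0.000714) lost its call in the fit without the library term (3.16, adjusted p = 0.0792).

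The summed enterocyte markers stood at 9.13% to 13.1% of the enterocyte level in goblet cells, 7.99% to 15.9% in stem and proliferating cells, 18.1% to 24.0% in enteroendocrine cells and 8.80% to 31.9% in T cells. Their part in the levels of the 8 genes outside enterocytes was not tested. Cd36 against enteroendocrine cells (1.76 ± 0.67, adjusted p = 0.0270, higher in enterocytes in 2 of 3 libraries) was lost in 9 of 17 alternatives, without the jejunum among them (0.46, adjusted p = 0.661) and without the duodenum (1.11, adjusted p = 0.362). With no scaling factors the share of genes called higher against lower in enterocytes went from 37.7% and 27.5% to 18.3% and 46.5% against stem and proliferating cells, and from 28.0% and 15% to 20.8% and 18.2% against goblet cells, with the 8 genes higher in enterocytes under either scaling.

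Enterocytes differed from early enterocytes in 4 of the 8 genes, each higher in enterocytes (26.5% of tested genes were, and 17.5% were lower). These were Slc27a4, Dgat2 (1.91 ± 0.26, adjusted p = 1.21e-06), Cd36 (1.98 ± 0.55, adjusted p = 0.00452) and Dgat1 (0.84 ± 0.31, adjusted p = 0.0272). The Dgat1 call was lost in 14 of 17 alternatives, and that of Cd36 without the duodenum (adjusted p = 0.0595), without the jejunum (adjusted p = 0.0553), with DESeq2 (adjusted p = 0.0612) and without the library term (adjusted p = 0.0700). Fabp1 levels of early enterocytes were 73.3, 132.9 and 0.732 in duodenum, jejunum and ileum against 45.7, 52.2 and 4.71 in enterocytes, so that the order of the classes was turned in the ileum. Fabp1 and Mogat2 did not pass the test here (adjusted p = 0.842 and 0.889), nor did Fabp2 (1.24 ± 0.53, adjusted p = 0.0598) and Acsl5 (0.75 ± 0.34, adjusted p = 0.0791). Fabp2 passed it under 4 alternatives: without the jejunum (1.77, adjusted p = 0.0383), at cluster resolution 1.2 (2.33, adjusted p = 0.00205), without integration (adjusted p = 0.0242) and without the filter on low genes (adjusted p = 0.0123). Acsl5 passed it at resolution 1.2 (1.60, adjusted p = 0.000641).

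**Figure D4:**
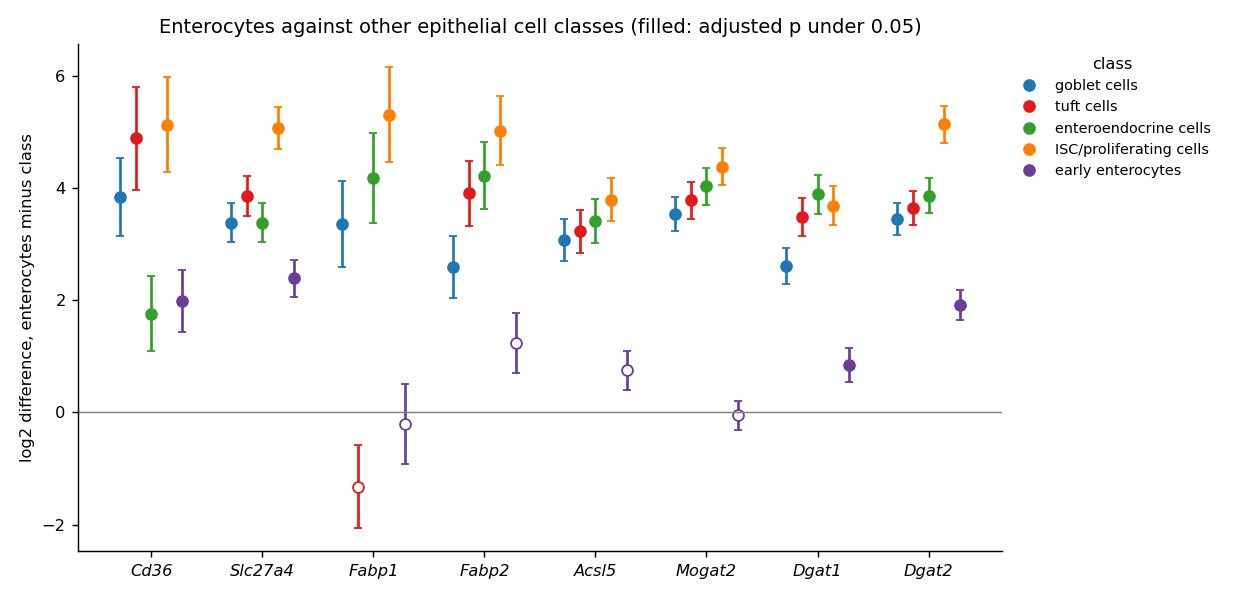
Log2 difference between enterocytes and each of 5 epithelial classes (y axis, positive is higher in enterocytes, error bars are SE) for the 8 genes (x axis); filled points have an edgeR adjusted p under 0.05. Fabp1 against tuft cells is the only point below -1, at -1.32.

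From the bottom to the tip, 4 of 8 genes rose (Slc27a4, Dgat2, Cd36 and Dgat1; 33.6% of 11118 genes did) and 2 fell (Fabp1 and Mogat2; 37.4% did). Between zones 1 and 3 the same 4 genes rose (23.9%) and 0 fell (24.2%), Dgat1 by 0.46 ± 0.14 (edgeR adjusted p = 0.0196). That Dgat1 call was lost without the jejunum (adjusted p = 0.130) and without the ileum (adjusted p = 0.150). It was also lost without scaling factors (0.29, adjusted p = 0.166) and with zones over enterocytes alone (0.17, adjusted p = 0.333). Without the ileum Fabp1 (-1.07, adjusted p = 0.0168) and Mogat2 (-0.39, adjusted p = 0.0393) were called lower in zone 3 than in zone 1, and Acsl5 was called higher there among cells of up to 20% mitochondrial UMIs (0.82, adjusted p = 0.0173). Between zones 3 and 5, Dgat2 and Slc27a4 rose (20.8%), and Fabp1 and Mogat2 fell (20.6%), Mogat2 by 0.67 on the log2 scale (SE 0.14, adjusted p = 0.00284, and 0.0565 without the jejunum). With 8 genes, counts of 2 to 4 beside such shares describe the named genes and set no group apart. Without scaling factors the median of the tested genes in zone 5 against zone 1 moved by -0.60 on the log2 scale, and the shares of genes higher and lower went from 33.6% and 37.4% to 18.9% and 54.0%. Slc27a4, Dgat2 and Cd36 still rose and Fabp1 and Mogat2 still fell then, while Dgat1, Fabp2 and Acsl5 turned negative.

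**Figure D5:**
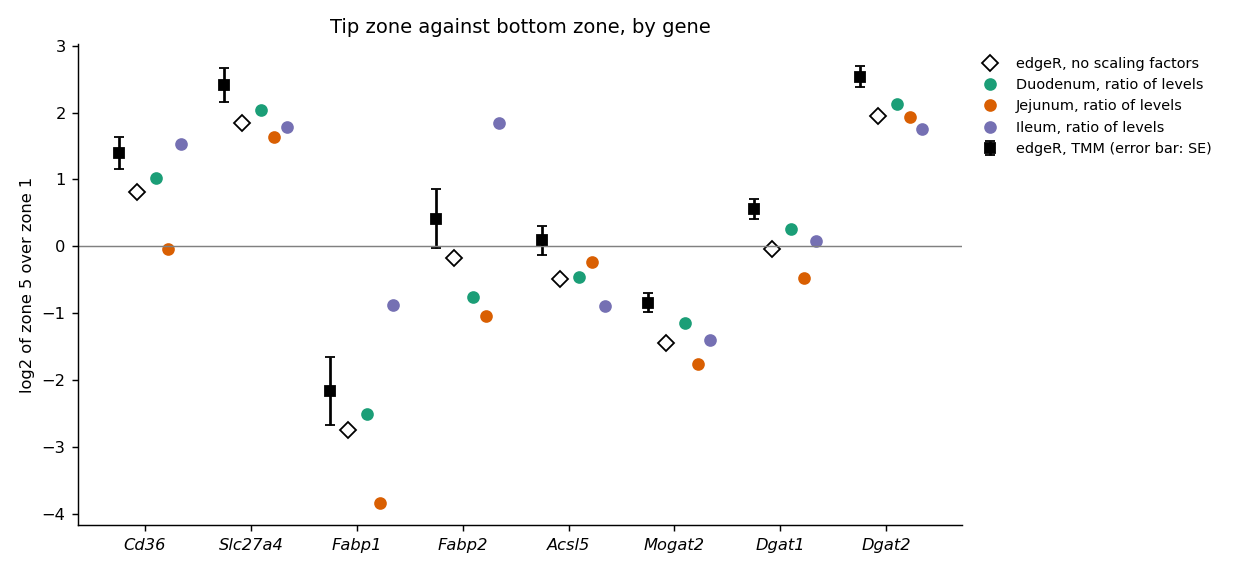
Log2 of zone 5 over zone 1 (y axis) for the 8 genes (x axis): edgeR with TMM scaling (squares, SE), edgeR with no scaling factors (open diamonds) and the ratio of levels in each segment (circles). Dgat2 and Slc27a4 are above 0 in each segment, Mogat2 and Fabp1 below 0, and Fabp2 lies at 1.85 in the ileum but -0.75 and -1.04 in duodenum and jejunum.

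Set against the background of segments, 3 of 8 genes differed by 2-fold or more between jejunum and duodenum (10.5% of 6843 genes did, 4.35% higher in the jejunum and 6.12% higher in the duodenum), all 3 higher in the jejunum: Fabp2, Cd36 and Slc27a4. Between ileum and jejunum 5 did (12.6% of 6761, 8.34% higher in the ileum and 4.23% in the jejunum), Fabp2 higher in the ileum and Fabp1, Cd36, Acsl5 and Dgat2 higher in the jejunum. Between ileum and duodenum 4 did (20.8% of 7147, 10.8% higher in the ileum and 9.93% in the duodenum), Fabp2 and Slc27a4 higher in the ileum, Fabp1 and Cd36 higher in the duodenum. Mogat2 and Dgat1 were in none of the 3 counts. As levels are relative, the 8 genes together took 1.06% of the UMIs of the lineage in duodenum, 2.30% in jejunum and 3.53% in ileum, where Fabp2 was most of it.

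Other genes of the pathway, 60 in 5 lists, gave context, and 47 of them passed the filter on low genes in the fit of cell classes. Against goblet cells 28 were higher in enterocytes, 6 were lower and 13 did not pass the test (28.0% of all tested genes were higher and 15% lower), with a median log2 difference of 1.26 against 0.27 over all tested genes. From zone 1 to zone 5, 18 of 45 rose and 19 fell, where 33.6% of all tested genes rose and 37.4% fell, with a median of -0.55 against -0.09. The counts of the single lists along the villus, of 3 to 12 genes each, are read beside these shares and set no list apart. Among acyl-CoA synthetases and transport proteins, 1 of 6 tested rose toward the tip and 4 fell. Acsl3, a synthetase of lipid droplets, rose by 4.94 ± 0.48 (edgeR adjusted p = 1.52e-06), from a mean level of 0.0875 to 1.94. Slc27a2, another transport protein with synthetase activity, fell by 1.51 on the log2 scale, and Acsl1 by 0.80.

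Of the other binding proteins, 3 of 3 tested fell toward the tip, as did 37.4% of all genes. Fabp6, the ileal bile acid binding protein, had a level of 195 in the ileum and 0.000610 and 0.00195 in duodenum and jejunum (3 and 10 UMIs), and fell by 3.55 on the log2 scale in a fit that only the ileum informs at any depth. Dbi, the acyl-CoA binding protein, fell by 0.57. In the glycerol phosphate pathway, which makes triglyceride without monoacylglycerol, 6 of 12 rose and 4 fell. The phosphatidate phosphatases Lpin2 (3.64 ± 0.45, from 0.447 to 5.23) and Lpin3 (1.77 ± 0.12, from 0.247 to 0.555) and the glycerol kinase Gk (1.19 ± 0.26) rose, while the acyltransferase Agpat3 fell by 1.33.

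Lipid droplet and lipolysis genes also split, with 6 of 12 higher and 4 lower at the tip. Cidec, a protein of droplet fusion, rose by 4.33 ± 0.42, from 0.251 to 3.11, and the droplet coat gene Plin3 by 1.92 ± 0.18, from 2.61 to 6.61. Plin2, the other coat gene named here, fell by 1.98 on the log2 scale, from 0.937 to 0.156. Abhd5, the co-activator of the triglyceride lipase, rose by 1.69 ± 0.17. Of 12 regulators 5 rose and 4 fell: Creb3l3, a membrane-bound factor of lipid genes, rose by 2.64 ± 0.36 (2.57 to 10.4) and Hnf4a by 2.13 ± 0.19 (1.87 to 5.59), and Ppara, the fatty acid sensor, fell by 2.83 on the log2 scale (0.219 to 0.0218) and Mlxipl by 1.67. Each gene named in these lists had an edgeR adjusted p under 0.05 in zone 5 against zone 1.

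The genes most like each of the 8 were taken by Pearson's r of log2 levels over 42 sums of zone or class and library, among 7824 genes, as a description in which points share libraries. Creb3l3 was the closest to Slc27a4 (r = 0.959) and to Dgat2 (r = 0.961), followed by Clec2e and 2010003K11Rik. Acsl5 was closest to Mttp, the transfer protein that loads lipid onto apolipoprotein B (r = 0.95), and to Cyp2d26. Ces2e, a carboxylesterase, was closest to Dgat1 (r = 0.964) and to Mogat2 (r = 0.942), with Acbd4 and Sult2b1 next. Fabp2 was closest to the brush border protease Mep1a (r = 0.945) and to Ces2a, Fabp1 to Leap2 (r = 0.851) and Tmem253, and Cd36 to Slc35c2 (r = 0.750) and Lipa, so that Fabp1 and Cd36 had the weakest likeness to any other gene.

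Within single cells of the lineage, Fabp1 and Fabp2 varied together in each segment although their segment orders differed. Pearson's r of ln(level + 1) was 0.73 over 3602 duodenal cells, 0.52 over 3591 jejunal cells and 0.47 over 4494 ileal cells. Within zones it lay between 0.18 and 0.79. Dgat1 and Dgat2 gave 0.16, -0.15 and -0.03. These values are across cells of 1 library each, and the cells differ in depth and in mitochondrial share. Sparse counts lower such values, and the part of depth and mitochondrial share in them was not tested.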

How the data were processed

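Cells of Duodenum, Jejunum and Ileum were measured by single-cell RNA sequencing, 1 library per segment with 3 mice pooled. Per the submitters' processing notes and the study's methods, the authors made the deposited counts with Cell Ranger 3.0.2 on GRCm38, as whole-number UMI counts per gene and barcode, with no normalization. Every barcode the authors deposited was read, and cells were kept with 800 to 50000 UMIs, 200 to 6000 genes and up to 40% mitochondrial UMIs. Cells were integrated and clustered with Seurat 5.3.0 (2000 variable genes, 30 principal components, resolution 0.8), and clusters were named from marker lists. The 8 genes and the 60 genes of the pathway lists were left out of the variable genes. No doublet caller was run. In its place, the tests of cell classes were repeated leaving out cells over 30000 UMIs. They were repeated again leaving out the 10% of cells with most enterocyte marker UMIs in each class and library, enterocytes and early enterocytes excepted. The tests of zones were not repeated in these ways. An unnamed enterocyte-like cluster was left out of the zones.

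UMIs were summed per library and class or zone (at least 10 cells) and tested with edgeR 4.0.16. Settings were quasi-likelihood, TMM scaling, filterByExpr, a library term, Benjamini-Hochberg adjustment over all genes and a threshold of 0.05. The 3 libraries stood in the place of replicates, although they are not independent samples of 1 condition. DESeq2 1.42.0 was an alternative. The 3 libraries are different segments, and all classes, or all zones, entered 1 fit and shared the estimate of the spread. A p-value thus sets a difference against the spread across segments pooled over that fit, not against the spread of that difference alone. It holds no spread between animals, and the paper does not say whether the segments came from the same mice. Segments were compared by level alone, past the fold meaning 2-fold with a level of at least 0.1 in either. The scripts were tested on simulated data. Of each pathway list up to 4 genes were named, those called in zone 5 against zone 1 with the largest log2 change, then those called against goblet cells, at a level of at least 0.1 in enterocytes. The 8 genes, the lists and the rules were chosen with earlier results of these data known.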

Additional observations from a re-analysis of the deposited data

Results flagged for a closer look

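As levels without scaling factors, Fabp2 and Dgat1 moved in different directions along the villus in different segments. The difference between segments was not tested, since each segment has 1 library. The log2 ratio of the Fabp2 level in zone 5 over zone 1 was -0.75 (duodenum) and -1.04 (jejunum) but 1.85 (ileum). For Dgat1 it was 0.26, -0.47 and 0.086 in the same order. Over the 3 libraries together Dgat1 gave 0.56 ± 0.15 with scaling for composition and -0.034 without. No ratio by segment was made with scaling, so whether the Dgat1 sign in a single segment depends on it was not tested. Zone 1 of the ileum was 45.7% early enterocytes, against 56.2% and 41.0% in duodenum and jejunum. Early enterocytes had Fabp2 levels of 30.2, 123 and 44.3 in duodenum, jejunum and ileum, against 34.0, 129 and 409 in enterocytes. With zones over enterocytes alone, Fabp2 in zone 5 against zone 1 was -0.21 over the 3 libraries together. That fit gives no ratio by segment, so the part of early cells in the difference between segments was not tested.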

How the results depend on the processing

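Replicate numbers in the labels name 1 sample per segment, so no paired analysis of segments was possible, and the library was the block in fits of classes and zones. With no replicate block the counts of the 8 genes called went from 8 to 7 against goblet cells (Fabp1), from 4 to 2 against early enterocytes, from 6 to 3 in zone 5 against zone 1, and from 4 to 0 both in zone 3 against zone 1 and in zone 5 against zone 3, where Fabp2 turned to 0.0098 and Cd36 to -0.42. The early enterocyte count was also 2 with DESeq2, and the count in zone 3 against zone 1 was 2 with zones over enterocytes alone. Leaving out 1 library gave 2 at the lowest against early enterocytes (without the duodenum) and 1 in zone 5 against zone 3 (without the jejunum). Between ileum and jejunum 3 of 5 genes stayed past 2-fold among cells of up to 20% mitochondrial UMIs. Signs also turned as log2 values. Leaving out 1 library at a time, Fabp1 ran from -2.39 (without the jejunum) to 0.037 (without the ileum) against tuft cells and from -0.83 to 0.62 against early enterocytes. In the latter Fabp1 was also 0.027 (up to 20% mitochondrial UMIs) and 0.27 (resolution 1.2), and Mogat2 0.41 (resolution 1.2). In zone 5 against zone 1, without scaling factors, Fabp2 was -0.18, Acsl5 -0.50 and Dgat1 -0.034, over enterocytes alone Fabp2 was -0.21 and Acsl5 -0.29, and with 1 library left out Fabp2 ran from -0.33 (without the ileum) to 0.86 and Acsl5 from -0.12 (without the jejunum) to 0.21. In zone 3 against zone 1 Fabp1 was 0.66 (up to 20% mitochondrial UMIs), 0.035 (unnamed cluster added) and -1.07 to 0.48 with 1 library left out, and Fabp2 was -0.022 over enterocytes alone. In zone 5 against zone 3 Cd36 was -0.34 without scaling factors, -0.038 without Reg genes in the score, -0.014 over enterocytes alone, -0.012 up to 20% mitochondrial UMIs and -0.22 to 0.49 with 1 library left out, and Dgat1 was -0.33 without scaling factors and -0.058 to 0.23 with 1 library left out. The causes were not tested. The depth of ileal cells, lower than in the other segments, limits values of low genes such as ileal Cd36.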
